A study of Homo sapiens with 24 samples.

Results

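Transcripts of 10 genes for transcription factors of the AP-1, ATF and small MAF families were followed in RNA-seq of A549 cells, a human lung adenocarcinoma cell line. The genes were FOS, FOSB, FOSL1, FOSL2, JUN, JUNB, JUND, ATF3, BATF3 and MAFF. They were found by their symbols among the 58721 gene identifiers counted in each of 24 libraries, and each of the 10 was present and was kept by the filter on low counts in every comparison. The study asked which transcripts depend on MYBL2 and FOXM1, 2 transcription factors of the cell cycle, and lowered them with small interfering RNAs (siRNAs) or treated cells with FDI-6, a small molecule reported to block the binding of FOXM1 to DNA. Each treatment was set against the control of its own experiment.

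The single-knockdown experiment held 4 siMYBL2, 4 siFOXM1 and 4 siControl libraries, the last with a scrambled siRNA, and the siMYBL2 and siFOXM1 comparisons share these controls. The double-knockdown experiment held 3 siBoth libraries, in which siMYBL2 and siFOXM1 were given together, and 3 siControl_Both libraries. In both experiments siRNA was used at 25 nM, and it is not given whether siBoth cells received that amount of each. The compound experiment held 3 FDI6 libraries from cells kept in 20 µM FDI-6 for 24 h and 3 control_FDI6 libraries. The labels name no vehicle for these, and the study describes the comparison as one against DMSO. No gene was deleted in any group, and all cells were of the 1 line, cultured in DMEM or RPMI with serum. The labels do not say which culture had which medium.

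AP-1 is a dimer of a JUN protein with a FOS protein or an ATF or BATF protein, joined through a leucine zipper, and its basic region reads a short palindrome in DNA. FOS, FOSB, JUN, JUNB and ATF3 are immediate-early genes, induced within minutes by growth factors, cytokines or stress through MAP kinases, without new protein synthesis, while FOSL1 and FOSL2 follow later and JUND is present in most resting cells. FOSL1 and JUN are often abundant in carcinoma cells, where MAP kinase signalling is active.

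On hg38, the build of the counts, positions were taken from GENCODE V44. The FOS genes lie apart, with FOS (ENSG00000170345.9) at chr14:75278826-75282230 on the plus strand, FOSB (ENSG00000125740.13) at chr19:45467995-45475179 on the plus strand, FOSL1 (ENSG00000175592.8) at chr11:65892049-65900573 on the minus strand and FOSL2 (ENSG00000075426.11) at chr2:28392448-28417317 on the plus strand. The JUN genes each have a single exon in their canonical transcript, with JUN (ENSG00000177606.6) at chr1:58776845-58784048 on the minus strand, JUNB (ENSG00000171223.5) at chr19:12791486-12793315 on the plus strand and JUND (ENSG00000130522.5) at chr19:18279694-18281622 on the minus strand, so that 3 of the 10 genes are on chromosome 19. ATF3 (ENSG00000162772.16) lies at chr1:212565334-212620777 on the plus strand, and its relative BATF3 (ENSG00000123685.8) on the same chromosome at chr1:212686417-212699840 on the minus strand. MAFF (ENSG00000185022.11) lies at chr22:38200767-38216507 on the plus strand. Counts were made per gene, so exons, isoforms and any reads of introns are not told apart here.

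Of the 10 genes, 8 had promoter windows in the RefSeq table used here (GRCh38.p14, 250 bases before to 50 after a start), and FOSL1 and BATF3 had none. The stretches shown come from genes that moved most in these data and that held, whole or in part, a motif of the kind AP-1 and ATF dimers bind. Each stretch has 130 bases, ending at the base before the start except for JUND, where it begins 250 bases before the start. Each is written in the direction of transcription, and capitals mark a match to one of the motifs listed after them.
FOS, chr14:75278698-75278827, plus strand: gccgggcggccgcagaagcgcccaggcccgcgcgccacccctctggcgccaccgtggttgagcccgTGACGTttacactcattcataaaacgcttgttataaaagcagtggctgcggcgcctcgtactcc
FOSB, chr19:45467866-45467995, plus strand: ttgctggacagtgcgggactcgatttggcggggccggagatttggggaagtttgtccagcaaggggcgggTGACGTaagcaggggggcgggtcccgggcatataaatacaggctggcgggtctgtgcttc
MAFF, chr22:38201864-38201993, plus strand: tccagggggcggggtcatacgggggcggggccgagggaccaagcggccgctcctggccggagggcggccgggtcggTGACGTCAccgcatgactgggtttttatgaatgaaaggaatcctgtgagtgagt
JUN, chr1:58784048-58784177, minus strand: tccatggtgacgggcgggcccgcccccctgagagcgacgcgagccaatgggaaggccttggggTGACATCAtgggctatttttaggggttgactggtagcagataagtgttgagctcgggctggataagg
ATF3, chr1:212565277-212565406, plus strand: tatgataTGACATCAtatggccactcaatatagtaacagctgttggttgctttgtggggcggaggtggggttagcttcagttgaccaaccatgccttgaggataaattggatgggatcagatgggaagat
JUND, chr19:18281743-18281872, minus strand: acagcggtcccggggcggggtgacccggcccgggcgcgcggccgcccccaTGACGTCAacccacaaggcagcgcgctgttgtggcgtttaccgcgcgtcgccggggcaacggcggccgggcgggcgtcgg

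On either strand TGACNTCA, the cyclic AMP response element with its middle base free, was in 7.72% of the 35116 promoter windows. TGANTCA, the classic AP-1 element, was in 7.71%, and TGACGT, which overlaps the first motif where the free base is G, was in 7.98%. TTACCTCA, a variant of the first, was in 0.715%. JUN held TGACATCA at position -67 and TTACCTCA at position -186, counted at the first base of the match with -1 as the base before the start. ATF3 held TGACATCA at -123 in 1 of its 2 windows, and MAFF held TGACGTCA at -54 in 1 of its 2 windows. FOS and FOSB held TGACGT at -64 and -60, and FOSL2 at -66, with TGACTCA at position 4. JUND held the whole palindrome TGACGTCA at -200, and the reverse of TGACGT at -87. In the JUNB window none of these letters was found. A match describes the letters only, and binding was not measured in the libraries.

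The libraries held 16487394 to 30140550 read pairs on genes, with 16487394 to 17741253 in FDI6 and 18856286 to 21039750 in control_FDI6. In the double-knockdown experiment 7.68 to 10.93% of pairs were not aligned, against 1.73 to 3.03% in all other libraries. The targeted genes followed the labels in every library: MYBL2 was at 4.77 to 9.0 CPM (the gene's count scaled by the library's read pairs on genes) in siMYBL2 and at 132 to 177 in siControl, and FOXM1 was at 10.4 to 13.2 in siFOXM1 and at 107 to 138 in siControl. FOXM1 was lower in siMYBL2 as well, at 60.3 to 94.3 CPM, while MYBL2 was at 130 to 178 CPM in siFOXM1. Of 14 epithelial or A549 genes 10 had a median over 10 CPM across the libraries (KRT8 at 3670 CPM, ALDH1A1 at 6090 CPM), while the alveolar markers SFTPB, SFTPC and NKX2-1 stayed under 1 CPM in every library. Of 12 markers of blood, endothelial and stromal cells 8 stayed under 1 CPM in all libraries, CD3E was at 0 in all of them, and COL1A1 was the only one with a median over 10 CPM.

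**Figure D1:**
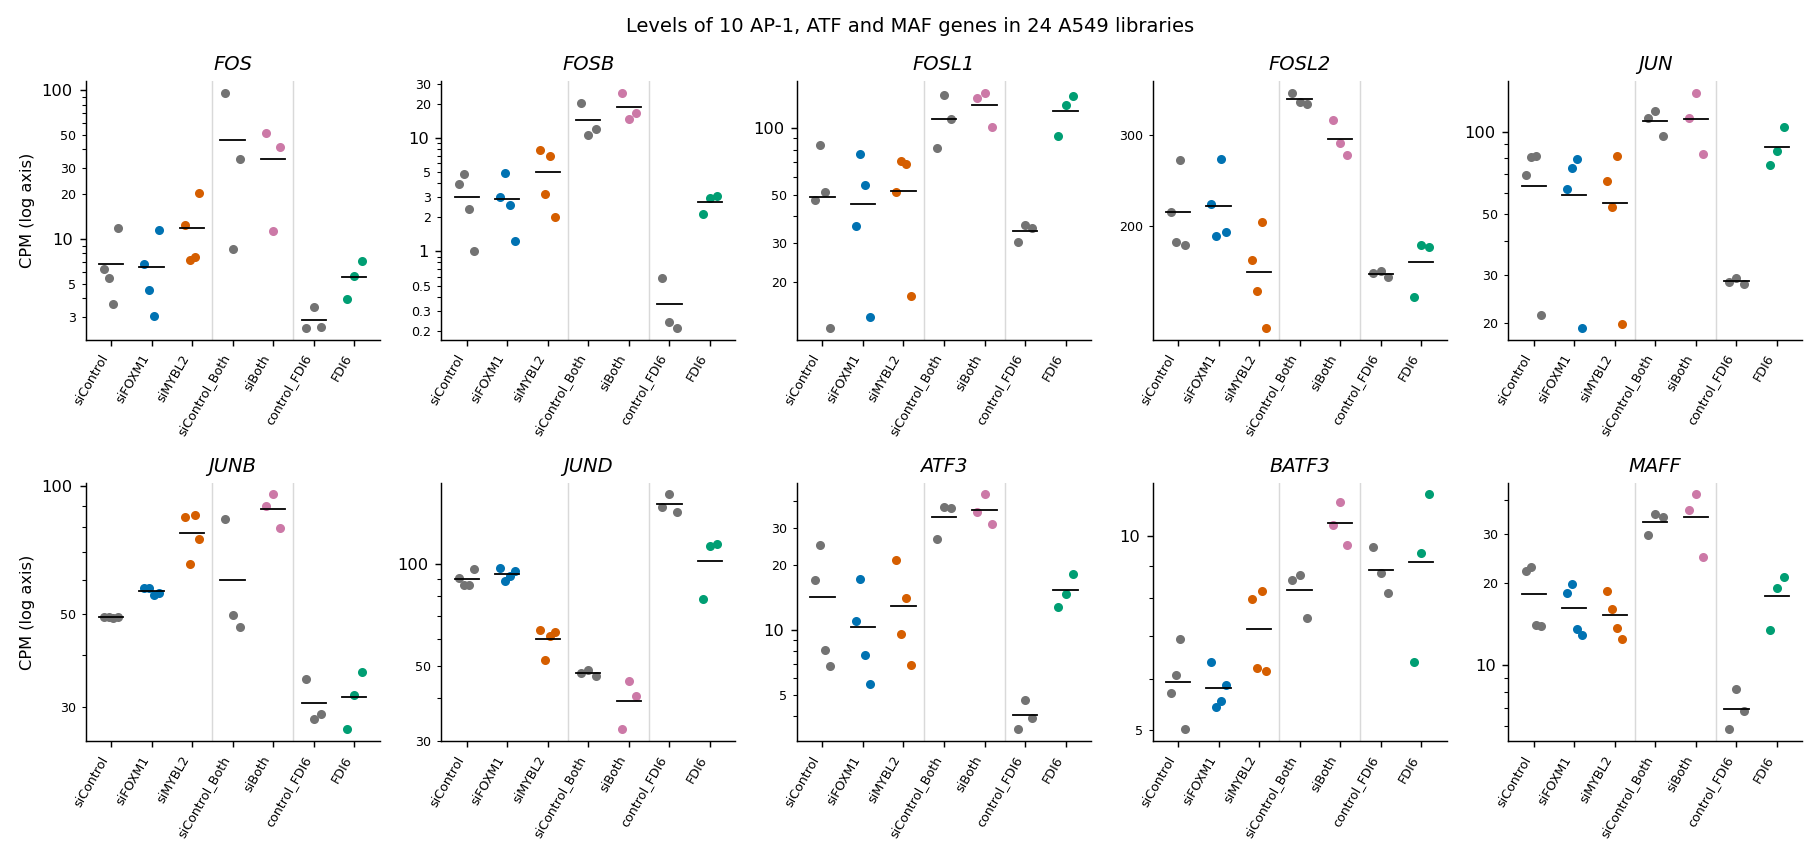
CPM (log axis) of the 10 genes in the 24 libraries, 1 point per library and a black bar for the group mean, with vertical lines between the 3 experiments. In FDI6 the points of FOS, FOSB, FOSL1, JUN, ATF3 and MAFF lie above all those of control_FDI6 and those of JUND lie below them. Among all genes tested with FDI-6, 21.0% rose and 17.9% fell at an adjusted p under 0.05 in edgeR's test.

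Per kilobase of exon, JUND was the most abundant of the 10 transcripts in siControl cells, at 46.7 CPM per kb (44.8 to 50 over 4 libraries), and in control_FDI6 cells, at 77.6 (73.5 to 83.0 over 3). In siControl it was followed by FOSL2 at 29.8 (25.7 to 37.6), JUNB at 26.8 (26.7 to 26.9), FOSL1 at 25.8 (6.55 to 44.5) and JUN at 17.5 (5.91 to 22.4), each in CPM per kb. FOSL1 spread so widely that its range covered those of FOSL2 and JUNB and most of that of JUN. Its place among these 4 is therefore not set beyond the spread between libraries. The ranges of FOSL2 and JUNB overlapped as well, while that of JUN lay below both. ATF3 (3.56), MAFF (3.24), BATF3 (2.31), FOS (2.13) and FOSB (0.542 CPM per kb) were lower, and of these FOSB alone had a range, 0.18 to 0.861, under that of its neighbour FOS, 1.14 to 3.73. The length used is that of all annotated exons of a gene, merged. It was 3998 bases for ATF3, 5611 for MAFF, 2569 for BATF3 and 3186 for FOS. Their canonical transcripts have 1940, 2374, 836 and 2104 bases, so the order of these lower genes depends on the length chosen.

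The 3 control groups did not share 1 order. In control_FDI6 cells FOSL2 (22.6), FOSL1 (18), JUNB (16.8) and JUN (7.85 CPM per kb) came after JUND, and FOSB was at only 0.0617 CPM per kb. In siControl_Both cells FOSL1 led with 58.7 CPM per kb (43.1 to 74.8), FOSL2 had 49.2 (48.2 to 50.7), and JUND had 24.7 (24.1 to 25.3), below JUNB at 32.8 and JUN at 30.1. FOS was at 14.6 CPM per kb there, with libraries from 2.68 to 30.1. Experiment, culture and sequencing run cannot be told apart in these differences between controls, and no test was made across experiments other than on the treatment effects.

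FDI-6 was followed by the widest change of these genes: 6 of the 10 rose and 1 fell. Among all 15240 genes tested in that comparison, 21.0% rose and 17.9% fell, so rising was also common elsewhere, and the median log2 fold change was 1.12 over the 10 genes and -0.01 over all genes. In bulk RNA a change in the number of cells of one kind and a change in RNA per cell cannot be told apart. Tests are edgeR's quasi-likelihood test with Benjamini-Hochberg adjustment over all genes, "rose" and "fell" mean an adjusted p under 0.05, and errors of log2 fold changes are standard errors (SE).

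FOSB, a FOS protein that is nearly silent in resting cells, had the largest fold of the 10. It was at 0.578, 0.238 and 0.212 CPM in the 3 control_FDI6 libraries, which rest on 11, 5 and 4 read pairs, and at 2.12, 2.96 and 3.1 CPM in FDI6, from 35, 51 and 55 pairs. All treated libraries lay above all controls, and the log2 fold change was 2.94 ± 0.39 (edgeR quasi-likelihood, adjusted p = 0.000148). FOS, its better known relative and a partner of JUN, was at 2.52, 3.47 and 2.55 CPM in control_FDI6 and at 3.94, 5.63 and 7.1 CPM in FDI6. The lowest treated library was close to the highest control, and FOS rose by 0.93 ± 0.23 on the log2 scale (edgeR, adjusted p = 0.00891), the smallest rise of the 6. When all 24 libraries shared 1 estimate of the spread, the same difference had an adjusted p of 0.398 by edgeR and the call was lost. Per kilobase of exon FOSL1 was the most abundant FOS transcript after FDI-6, at 63.7 CPM per kb against 23.8 for FOSL2. It was at 92.3, 128 and 140 CPM in FDI6 against 30.5, 36.2 and 35.3 CPM in the controls. Its treated libraries were all well above any control, for a log2 fold change of 1.79 ± 0.14 (edgeR, adjusted p = 2.79e-06). FOSL2 was at 146, 184 and 182 CPM in FDI6 and at 162, 164 and 159 CPM in control_FDI6. The groups overlapped, and the log2 difference was 0.04 ± 0.09 (edgeR, adjusted p = 0.739). Without FDI6 replicate 1 FOSL2 passed, at 0.14 on the log2 scale (edgeR, adjusted p = 0.0263).

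Of the JUN genes, JUN itself, the JUN family's strongest activator, was at 28.3, 29.2 and 27.8 CPM in control_FDI6 and at 75.9, 85.3 and 104 CPM in FDI6. The controls lay close together and all treated libraries stood well above them, with a log2 fold change of 1.60 ± 0.11 (edgeR, adjusted p = 1.11e-06). JUND, which counters growth in several cell types, moved the other way, from 147, 160 and 142 CPM in control_FDI6 to 78.5, 113 and 114 CPM in FDI6. Each treated library was lower than each control, and JUND fell by 0.59 ± 0.12 on the log2 scale (edgeR, adjusted p = 0.0027). With an offset for GC content and length, fitted in each library, its log2 difference was -0.09 ± 0.05 (edgeR, adjusted p = 0.222), so the call did not hold. JUND has the highest GC content of the 10 canonical transcripts, 69.9% against a median of 46.9% over all canonical transcripts. JUNB, which often opposes JUN, was at 26.6, 32.1 and 36.4 CPM in FDI6 and at 35.1, 28.1 and 28.9 CPM in control_FDI6. Its groups overlapped at a log2 difference of 0.01 ± 0.12 (edgeR, adjusted p = 0.961), but with the same correction JUNB rose by 0.44 ± 0.09 (edgeR, adjusted p = 0.00158). BATF3 went the same way, from 0.01 to 0.44 ± 0.14 (edgeR, adjusted p = 0.0295). Under this correction 8 of the 10 genes passed, beside 30.9% of all genes.

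ATF3, a stress-induced factor that can repress or activate its targets, was at 3.47, 4.75 and 3.92 CPM in control_FDI6 and at 12.9, 14.8 and 18.3 CPM in FDI6. The treated libraries did not come near the controls, and ATF3 rose by 1.88 ± 0.17 on the log2 scale (edgeR, adjusted p = 9.71e-06). MAFF, a small MAF protein that lacks a transactivation domain, rose from 5.84, 8.22 and 6.79 CPM to 13.5, 19.2 and 20.9 CPM, a log2 fold change of 1.32 ± 0.18 (edgeR, adjusted p = 0.000165). All treated libraries were above all controls for MAFF too. BATF3, a dimer partner of JUN known from dendritic cells, was at 6.37, 9.41 and 11.6 CPM in FDI6 and at 9.62, 8.75 and 8.17 CPM in control_FDI6, with the controls inside the treated range. Of MAFF's exon bases 5.8% overlap PLA2G6 on the opposite strand, and of JUNB's 14.2% overlap HOOK2, also on the opposite strand. The strand setting of the counting is not given in the sources used here, so reads of these overlaps may belong to either gene.

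FDI6 replicate 1 was the lowest of its group for all 10 genes, and replicate 3 the highest for 9 of them. Leaving out each library in turn kept all 7 calls, with log2 fold changes of 2.70 to 3.53 for FOSB, 1.73 to 2.01 for ATF3, 1.47 to 1.70 for JUN and -0.68 to -0.44 for JUND. The largest adjusted p in these edgeR fits was 0.0457, for FOS.

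**Figure D2:**
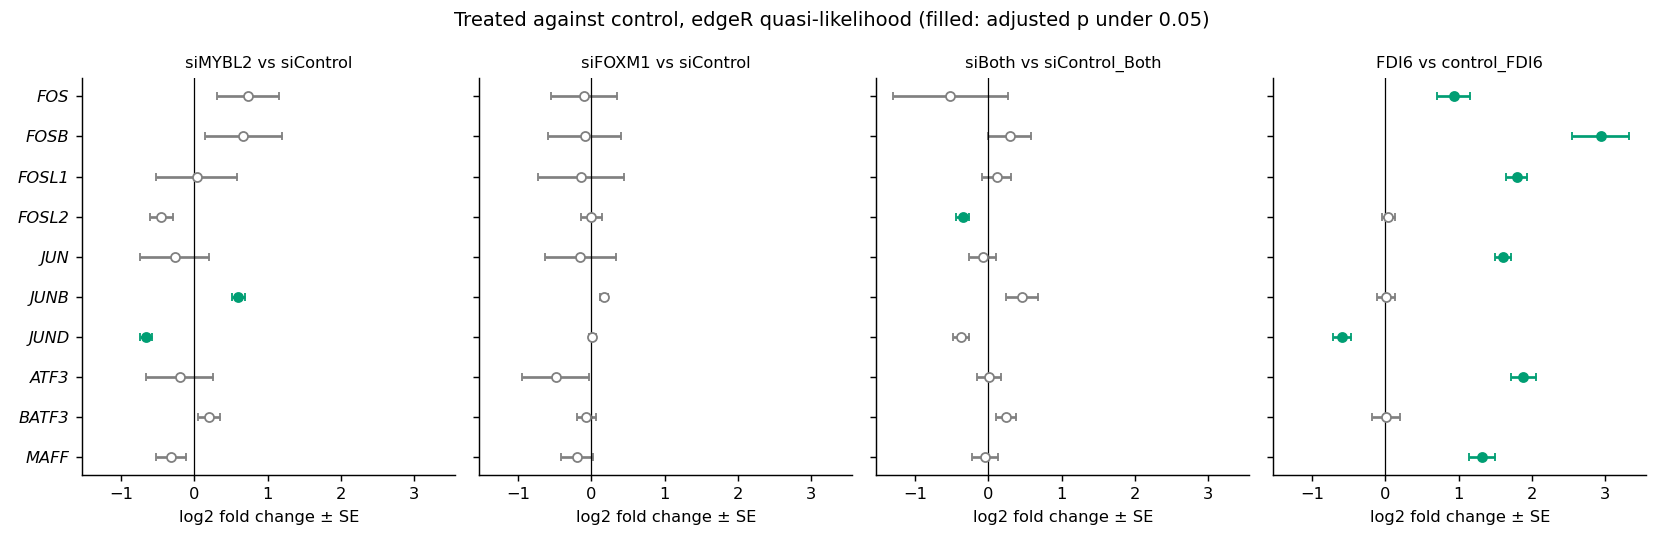
Log2 fold change of each gene against its own control, with bars for 1 standard error, in the 4 treatments, and filled symbols for an adjusted p under 0.05. Filled symbols are 7 for FDI-6, 2 for siMYBL2 (JUNB and JUND), 1 for siBoth (FOSL2) and 0 for siFOXM1.

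In siMYBL2 cells JUNB rose and JUND fell, and the other 8 genes did not pass; among all 16065 genes tested 8.53% rose and 9.53% fell. JUNB was at 84.8, 65.6, 85.5 and 75.2 CPM in siMYBL2 and at 49.2, 49.2, 48.8 and 49.1 CPM in siControl. The 4 controls were nearly equal and every siMYBL2 library was above them, with a log2 fold change of 0.60 ± 0.09 (edgeR, adjusted p = 0.00227). JUND was at 63.5, 52.1, 61.2 and 62.9 CPM in siMYBL2 and at 90.9, 86.6, 86.4 and 96.4 CPM in siControl. No library of one group reached the other, and JUND fell by 0.66 ± 0.08 on the log2 scale (edgeR, adjusted p = 0.000719). Both calls held when each library in turn was left out and under the correction for GC content and length. The median log2 fold change was -0.09 over the 10 genes and 0.01 over all genes. FOXM1 also fell in siMYBL2, by 0.73 ± 0.14 on the log2 scale (edgeR, adjusted p = 0.00754).

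Replicate numbers pair the libraries of the knockdown experiments, and a fit with the number as a block passed 4 more genes in siMYBL2, for 6 of 10, while 46.7% of all genes passed in that fit. FOS was at 12.3, 7.19, 7.5 and 20.2 CPM in siMYBL2 replicates 1 to 4 and at 6.23, 5.42, 3.64 and 11.9 CPM in siControl. The groups overlapped, yet FOS was higher in siMYBL2 in 4 of 4 pairs, and with the block the log2 fold change was 0.73 ± 0.11 (edgeR, adjusted p = 8.69e-05), against an adjusted p = 0.261 by edgeR without it. FOSL2 was at 172, 150, 204 and 127 CPM in siMYBL2 and at 213, 186, 269 and 184 CPM in siControl, lower in 4 of 4 pairs. Its log2 difference was -0.45 ± 0.04 with the block (edgeR, adjusted p = 2.97e-06) and had an adjusted p of 0.0883 by edgeR without it. MAFF (-0.31 ± 0.08, adjusted p = 0.00738) and JUN (-0.27 ± 0.08, adjusted p = 0.017) also passed in edgeR with the block alone. FOSL1, ATF3, FOSB and BATF3 passed in neither fit. Without siMYBL2 replicate 3 FOSL2 passed without a block too, at -0.57 (edgeR, adjusted p = 0.0481). It also passed without a block in DESeq2 (adjusted p = 0.0438) and with all 24 libraries in 1 fit (edgeR, adjusted p = 0.0161).

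In siFOXM1 cells none of the 10 genes passed edgeR's test, 1 had an unadjusted p under 0.05 and DESeq2 passed 1, JUNB in each case. Few genes passed at all in this comparison: 0.277% of 15892 rose and 1.09% fell, 13.0% had an unadjusted p under 0.05, and DESeq2 passed 4.26%. JUNB was at 57.4, 57.5, 55.4 and 56 CPM in siFOXM1, above the 48.8 to 49.2 CPM of the siControl libraries without overlap, a log2 difference of 0.17 ± 0.05 (edgeR, adjusted p = 0.137). ATF3 was at 11, 17.3, 7.72 and 5.61 CPM in siFOXM1 and at 17.1, 24.9, 8.14 and 6.8 CPM in siControl. The groups overlapped, with siFOXM1 lower in 4 of 4 pairs. With the replicate block 4 of 10 genes passed, as did 26.3% of all genes: ATF3 at -0.46 ± 0.08 (edgeR, adjusted p = 0.000158), JUNB at 0.17 ± 0.04 (adjusted p = 0.0023), JUN at -0.15 ± 0.04 (adjusted p = 0.00616) and MAFF at -0.19 ± 0.06 (adjusted p = 0.0243). JUND was at 97.1, 88.7, 92.1 and 94.8 CPM in siFOXM1, overlapping the 86.4 to 96.4 CPM of siControl, at a log2 difference of 0.01 ± 0.05 (edgeR, adjusted p = 0.965).

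Between the knockdowns themselves, which share their controls and were therefore compared directly, JUND was lower in siMYBL2 than in siFOXM1 by a log2 difference of -0.67 ± 0.07 (edgeR, adjusted p = 0.000302), and JUNB was higher by 0.42 ± 0.08 (edgeR, adjusted p = 0.00721). These were the 2 of 10 genes that passed, where 11.4% of all 16172 genes were higher and 11.8% lower in siMYBL2. FOSL2 passed too with DESeq2 (adjusted p = 0.025), and in edgeR without a filter (adjusted p = 0.0361) or with the correction for GC content and length (adjusted p = 0.0484). With the replicate block 5 of 10 passed, and so did 48.9% of all genes. The 3 added were FOSL2 at -0.47 ± 0.05 (adjusted p = 3.24e-06), FOS at 0.86 ± 0.10 (adjusted p = 1.68e-05) and FOSB at 0.71 ± 0.27 (adjusted p = 0.0445), all by edgeR.

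Within the single-knockdown experiment the libraries numbered 4 were the lowest or the highest of every group for part of the family. FOSL1 was at 17.2, 13.9 and 12.4 CPM in replicate 4 of siMYBL2, siFOXM1 and siControl, and between 36.1 and 84.0 CPM in the other 9 libraries. JUN was at 19.9, 19.2 and 21.4 CPM in replicate 4 and between 53.0 and 81.6 CPM elsewhere. FOSB, ATF3 and MAFF were also lowest in replicate 4 of all 3 groups, whereas FOS was highest there, at 20.2, 11.4 and 11.9 CPM. JUNB was neither lowest nor highest there in any group, and JUND was highest there in siControl alone. The labels give no date or batch for the numbers, and what sets replicate 4 apart was not tested.

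**Figure D3:**
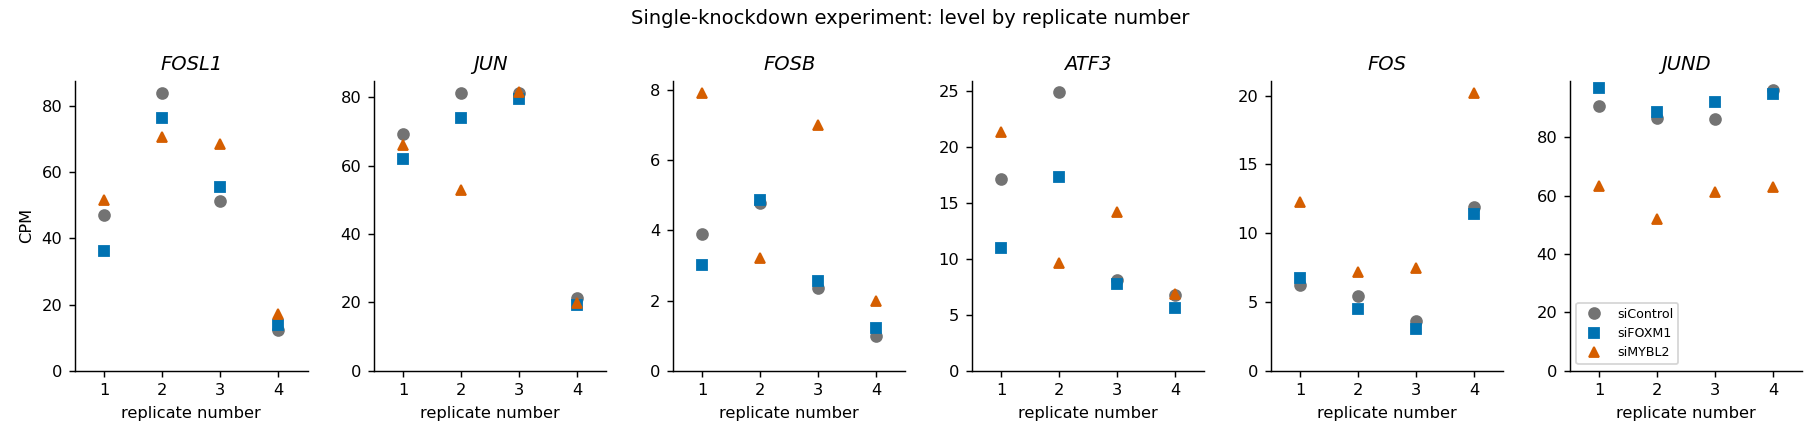
CPM of 6 genes in the 12 libraries of the single-knockdown experiment, by replicate number, with a symbol per group. Replicate 4 is low for FOSL1, JUN, FOSB and ATF3 and high for FOS in all 3 groups, while JUND separates siMYBL2 from the other groups at every number.

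In the double knockdown 1 of the 10 genes passed, FOSL2, beside 4.55% of 15812 genes that rose and 7.77% that fell. FOSL2, a FOS protein with no strong activation domain, was at 322, 290 and 275 CPM in siBoth and at 363, 349 and 345 CPM in siControl_Both. Every siBoth library was below every control, and FOSL2 fell by 0.35 ± 0.09 on the log2 scale (edgeR, adjusted p = 0.0441). The call is close to the threshold. It held in DESeq2 (adjusted p = 0.00843), with the correction for GC content and length (edgeR, adjusted p = 0.0328) and without siBoth replicate 1. It was lost when any 1 of the other 5 libraries was left out. The call was also lost in edgeR with upper-quartile scaling (adjusted p = 0.0744) and when all 24 libraries were fitted together (adjusted p = 0.113). JUND was at 32.4, 45.0 and 40.6 CPM in siBoth and at 47.4, 48.7 and 46.5 CPM in siControl_Both, lower without overlap but at a log2 difference of -0.38 ± 0.11 (edgeR, adjusted p = 0.067). Without siBoth replicate 2 it passed, at -0.48 (adjusted p = 0.0479). JUND also passed with the correction for GC content and length, at -0.56 ± 0.07 (edgeR, adjusted p = 0.00274). DESeq2 passed it as well (adjusted p = 0.034), as did edgeR without a filter (adjusted p = 0.0201) and with all 24 libraries in 1 fit (adjusted p = 0.0264). JUNB was at 90.1, 95.7 and 79.8 CPM in siBoth and at 83.7, 49.7 and 46.6 CPM in siControl_Both. Control replicate 1 lay inside the siBoth range, and the log2 difference of 0.46 ± 0.22 had an adjusted p of 0.199 by edgeR, and without that library JUNB passed, at 0.78 (adjusted p = 0.00972).

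With the replicate block 4 of 10 genes passed in siBoth, where 34.8% of all genes did: FOSL2 at -0.36 ± 0.07 (edgeR, adjusted p = 0.000702), JUND at -0.39 ± 0.09 (adjusted p = 0.00264), JUNB at 0.50 ± 0.11 (adjusted p = 0.00258) and FOSB at 0.30 ± 0.10 (adjusted p = 0.0323). FOSB was at 25.1, 14.7 and 16.6 CPM in siBoth and at 20.5, 10.6 and 12 CPM in siControl_Both, higher in 3 of 3 pairs with overlapping groups. FOS varied most here, at 51.1, 11.2 and 41.7 CPM in siBoth and at 96.0, 8.53 and 34.6 CPM in siControl_Both. Replicate 2 was the lowest of both groups, and the log2 difference of -0.52 ± 0.78 (edgeR, adjusted p = 0.695) could not be told from 0. ATF3 was at 35.3, 42.7 and 31.0 CPM against 26.5, 37.2 and 37.0 CPM in the controls, with overlap.

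No gene of the 10 differed between the siBoth effect and the siMYBL2 effect in edgeR's test of that difference, none had an unadjusted p under 0.05 there and DESeq2 passed 0, while 0.0% of 17012 genes were higher and 0.176% lower. The log2 fold change of JUND was -0.38 in siBoth, nearer to 0 than the -0.66 of siMYBL2, a difference of 0.28 ± 0.13 (edgeR, adjusted p = 0.654), and for JUNB the difference was -0.14 ± 0.23 (adjusted p = 0.944). With the correction for GC content and length JUND was at -0.56 in siBoth and -0.65 in siMYBL2. Its tested difference was then 0.06 ± 0.1 (edgeR, adjusted p = 0.998). With the block FOS passed, at -1 ± 0.25 (edgeR, adjusted p = 0.0231).

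The FDI-6 effect was also set against the siFOXM1 effect, since the compound is reported to block FOXM1. FOXM1 transcript fell by 3.38 ± 0.11 on the log2 scale in siFOXM1 and by 0.37 ± 0.08 in FDI6 (edgeR, adjusted p = 2.34e-06 and 0.004). MYBL2 transcript fell by 0.51 ± 0.09 in FDI6 (edgeR, adjusted p = 0.00105) and did not pass in siFOXM1 (-0.06 ± 0.11, adjusted p = 0.913). Of the 10 genes 5 differed between the effects, 4 of them higher with FDI-6, beside 12.3% of 17026 genes higher and 8.64% lower. The difference of effects was 3.03 ± 0.79 for FOSB (edgeR, adjusted p = 0.0148), 2.37 ± 0.60 for ATF3 (adjusted p = 0.0129), 1.53 ± 0.32 for MAFF (adjusted p = 0.00422) and 1.74 ± 0.59 for JUN (adjusted p = 0.0497), all on the log2 scale. JUND differed by -0.61 ± 0.15 (edgeR, adjusted p = 0.00902), but by -0.13 ± 0.07 with the correction for GC content and length (adjusted p = 0.289). Without a block JUN sat at the threshold, and its call was lost in 11 of 14 fits that left out a library. It held without siFOXM1 replicate 3 or 4 or siControl replicate 4. FOSL1 (1.92 ± 0.72, edgeR adjusted p = 0.0708) and FOS (1.02 ± 0.61, adjusted p = 0.255) did not pass, but FOSL1 did without siControl replicate 4 (2.24, adjusted p = 0.00968) or siFOXM1 replicate 2 (2.31, adjusted p = 0.0366). Their siFOXM1 and siControl libraries included the low FOSL1 and high FOS values of replicate 4. With the replicate block, under which 6523 genes passed in all, JUN was at 1.74 ± 0.10 (edgeR, adjusted p = 3.38e-09). FOSL1 (1.88 ± 0.12, adjusted p = 1.19e-08) and FOS (1.05 ± 0.22, adjusted p = 0.00124) passed in that edgeR fit too. The numbers pair the siFOXM1 and siControl libraries but not those of the compound experiment. The 2 treatments came from different experiments, with siRNA transfection in 1 of them, and differ also in exposure and depth, which cannot be told apart from the agents.

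Transcripts were also summed per length over each family, as a description with no test. The JUN, JUNB and JUND transcripts together were at 102 CPM per kb in control_FDI6 and 94.5 in FDI6. JUND made up 75.9% of that sum in control_FDI6 and 55.9% in FDI6, and JUN 7.68% and 25.8%. These shares carry no correction for GC content and length, with which the fall of JUND did not hold and JUNB rose. The FOS family sum was 41.6 CPM per kb in control_FDI6 and 89.8 in FDI6, with FOSL1 at 43.4% and 71.0% of it. In siControl JUND was 51.3% and JUNB 29.5% of the JUN family, and in siMYBL2 JUND was 35.0% and JUNB 47.9%, at family sums of 91.0 and 88.8 CPM per kb. In siFOXM1 the shares were 50.6% and 32.4%. JUNB also led the JUN family in siBoth, with 48.6%, against 37.5% in siControl_Both. These shares are of transcripts, and dimers were not measured.

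**Figure D4:**
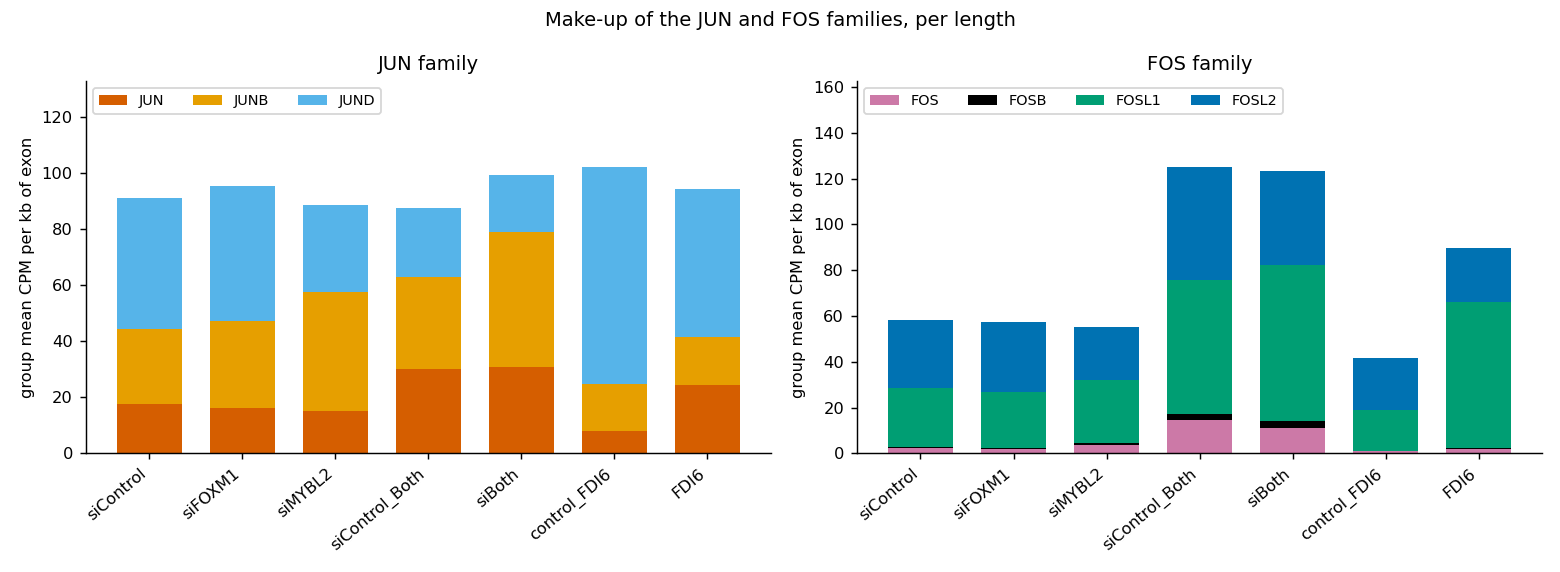
Group mean CPM per kb of exon, stacked by gene, for the JUN family (left) and the FOS family (right) in the 7 groups. The JUN stack keeps about its height in FDI6 while JUN widens and JUND narrows (levels not corrected for GC content), and the FOS stack grows from 41.6 to 89.8 CPM per kb, mostly by FOSL1.

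Genes around AP-1 were counted in lists, to be read against all genes tested: 21.0% rose and 17.9% fell with FDI-6, 8.53% and 9.53% in siMYBL2, 0.277% and 1.09% in siFOXM1, and 4.55% and 7.77% in siBoth. With the replicate block 46.7% of all genes passed in siMYBL2, 26.3% in siFOXM1 and 34.8% in siBoth. Most list counts in the knockdowns are small and moved by over 1.5 times with the block or when 1 library was left out. Some genes, such as DDIT3 and KRT18, are in more than 1 list, so the lists are not independent.

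Of 33 genes of the MAP kinase cascade that leads to AP-1 all were tested, and 16 rose and 8 fell with FDI-6, at a median log2 fold change of 0.20 against -0.01 over all genes. With the correction for GC content and length 10 rose and 2 fell, where 30.9% of all genes passed. The counts were 9 and 5 without control_FDI6 replicate 1, 10 and 5 without control_FDI6 replicate 2 or 3, and 12 and 4 without FDI6 replicate 2. ELK3, an ETS factor of the ternary complex on serum response elements, rose by 1.10 ± 0.07 (edgeR, adjusted p = 1.11e-06) and RPS6KA5, the histone kinase MSK1, by 1.07 ± 0.13 (adjusted p = 0.000116). In siMYBL2 1 rose and 6 fell, among them MAP2K3, a kinase of p38, at -0.82 ± 0.15 (edgeR, adjusted p = 0.00754). In siFOXM1 2 fell and none rose, and in siBoth 3 rose and 5 fell, with MAPK13, a p38 kinase, at 1.04 ± 0.21 (edgeR, adjusted p = 0.0192). The siMYBL2 counts were 1 and 2 without siMYBL2 replicate 1. They were 2 and 3 without siMYBL2 replicate 4, and 1 and 3 without siControl replicate 1. In siFOXM1 1 fell when any library but siControl replicate 4 was left out. The siBoth counts were 0 and 1 without siControl_Both replicate 2 or 3. They were 1 and 3 without siControl_Both replicate 1 or siBoth replicate 2, and 2 and 3 without siBoth replicate 1. With the block 9 rose and 13 fell in siMYBL2, 5 and 13 in siFOXM1, and 7 and 13 in siBoth.

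Of 35 other immediate-early genes 31 were tested. With FDI-6 20 rose and 2 fell, at a median log2 fold change of 0.63, against 21.0% and 17.9% of all genes. EGR1, a zinc finger factor induced beside FOS, was at 8.75 ± 1.75 CPM in FDI6 and 2.05 ± 0.703 CPM in control_FDI6 (SD, n = 3 each), a log2 fold change of 2.06 ± 0.23 (edgeR, adjusted p = 5.14e-05). ARC rose by 3.02 ± 0.41 (edgeR, adjusted p = 0.000207), and SIK1, a kinase gene driven by cyclic AMP, fell by 1.32 ± 0.31 (adjusted p = 0.00556). In the knockdowns 2 rose and 7 fell in siMYBL2, 1 rose and 0 fell in siFOXM1, and 1 rose and 5 fell in siBoth. With the block the counts were 6 and 15, 8 and 11, and 3 and 9. They were 1 and 4 in siMYBL2 without siControl replicate 1 or 2, and 1 and 2 in siBoth without siBoth replicate 2 or siControl_Both replicate 3. BTG2, an antiproliferative gene under p53, was the gene that rose in all 3, by 0.85 ± 0.09 in siMYBL2, 0.61 ± 0.10 in siFOXM1 and 1.32 ± 0.14 in siBoth (edgeR, adjusted p = 0.000635, 0.0248 and 0.00148). The siFOXM1 call was lost without siFOXM1 replicate 1 or siControl replicate 1, 2 or 3. KLF2 fell by 1.33 ± 0.31 in siMYBL2 and by 1.23 ± 0.26 in siBoth (edgeR, adjusted p = 0.0181 and 0.0228). SGK1, a serum-induced kinase gene, fell by 1.00 ± 0.17 in siMYBL2 and ZFP36L2, an mRNA decay factor, by 0.96 ± 0.14 in siBoth (edgeR, adjusted p = 0.00446 and 0.00462).

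Of 38 known AP-1 target genes 33 were tested with FDI-6, and 20 rose and 5 fell, against 21.0% and 17.9% of all genes, at a median log2 fold change of 0.34. When a library was left out 18 to 20 rose and 3 to 5 fell, with 3 that fell without control_FDI6 replicate 1 or 3. MMP1, the interstitial collagenase and a long-known AP-1 target, had 260 read pairs over the 3 FDI6 libraries (73 to 108 in each) and 0 over the 58915415 pairs of control_FDI6. Against a floor of 3 counts over that group MMP1 was at least 99.2-fold higher. MMP3, stromelysin, had 42 pairs in FDI6 and 0 in control_FDI6, at least 16.0-fold higher. Both rose in edgeR's test (adjusted p = 3.53e-06 and 0.000636). KRT18 and HMOX1, the heme oxygenase, fell by 0.65 ± 0.05 and 0.60 ± 0.11 (edgeR, adjusted p = 4.7e-06 and 0.00126). In siMYBL2 5 of 35 rose and 2 fell, with HMOX1 at -0.72 ± 0.16 (edgeR, adjusted p = 0.0166), against 8.53% and 9.53% of all genes. Leaving out a library left 0 to 3 that rose and 0 to 3 that fell, lowest without siMYBL2 replicate 1, and 0 rose without siControl replicate 3. None of 35 passed edgeR's test in siFOXM1, where 4 had an unadjusted p under 0.05 and DESeq2 passed 2, and 1 rose and 1 fell in siBoth, where IL11, a cytokine gene, rose by 0.91 ± 0.11 (adjusted p = 0.00284). In siBoth 0 fell without siControl_Both replicate 2 or 3, and 4 fell without siControl_Both replicate 1. With the block, which the pairing of these libraries allows, 14 rose and 8 fell in siMYBL2, 3 rose and 18 fell in siFOXM1, and 8 rose and 11 fell in siBoth.

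Among 33 other genes with a leucine zipper 29 were tested with FDI-6, and 13 rose and 4 fell, against 21.0% and 17.9% of all genes. The counts were 7 and 2 without control_FDI6 replicate 1 and 8 and 3 without control_FDI6 replicate 2. CREB5 rose by 1.76 ± 0.22 and DDIT3, the stress factor CHOP, by 1.39 ± 0.18 (edgeR, adjusted p = 0.000103 and 0.00013). CEBPD fell by 0.96 ± 0.11 and DBP, a clock output factor, by 0.86 ± 0.15 (adjusted p = 4.85e-05 and 0.00118). In siMYBL2 4 of 31 fell and in siBoth 2 of 30, and none rose. In siFOXM1 none of 30 passed edgeR's test, 5 had an unadjusted p under 0.05 and DESeq2 passed 1. With the block 4 rose and 12 fell in siMYBL2, 4 and 10 in siFOXM1, and 3 and 8 in siBoth. The siMYBL2 falls were 2 without siMYBL2 replicate 3 or siControl replicate 1 or 2, and in siBoth leaving out a library left 0 to 2 that rose and 0 to 1 that fell.

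The integrated stress response, in which ATF4 induces ATF3, was covered by 23 genes, all tested: 13 rose and 2 fell with FDI-6, 2 rose and 6 fell in siMYBL2, and 1 rose and 2 fell in siBoth, where 4.55% and 7.77% of all genes did. Leaving out a library left 13 to 18 that rose with FDI-6 and 0 to 2 that fell, the 0 without control_FDI6 replicate 1. In siBoth it left 0 to 2 in either direction, lowest without siBoth replicate 1 or 2 or siControl_Both replicate 3. In siFOXM1 none passed edgeR's test, 5 had an unadjusted p under 0.05 and DESeq2 passed 3. With the block 3 rose and 11 fell in siMYBL2 and in siFOXM1 alike, and 5 and 6 in siBoth. STC2, a secreted target of ATF4, rose by 1.35 ± 0.09 with FDI-6 and fell by 1.00 ± 0.15 in siMYBL2 (edgeR, adjusted p = 9.02e-07 and 0.00264). SESN2, a stress-induced regulator of mTORC1, rose by 0.77 ± 0.18 in siBoth (adjusted p = 0.03).

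Markers moved beside these lists. Of 11 epithelial and A549 genes tested 10 fell and 1 rose with FDI-6, with CDH1, E-cadherin, at -1.49 ± 0.12 and AKR1C2 at -1.17 ± 0.06 (edgeR, adjusted p = 5.54e-06 and 9.22e-08). The summed level of the 12 markers of other cell types was 6.19 to 11 CPM in FDI6 and 17.9 to 20.5 CPM in control_FDI6, mostly COL1A1, which fell by 1.28 ± 0.17 (adjusted p = 0.000199). In siMYBL2 and siBoth 1 of 11 epithelial and A549 genes fell, ALDH1A1, by 1.55 ± 0.15 and 1.59 ± 0.11 (edgeR, adjusted p = 0.000417 and 0.000293), and in siFOXM1 0 of 11 passed in edgeR or DESeq2 or had an unadjusted p under 0.05. With the block 1 rose and 7 fell in siMYBL2, 2 and 1 in siFOXM1, and 1 and 4 in siBoth, and with all 24 libraries in 1 fit 0 rose and 6 fell with FDI-6. The part of these genes in the AP-1 results was not tested.

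**Figure D5:**
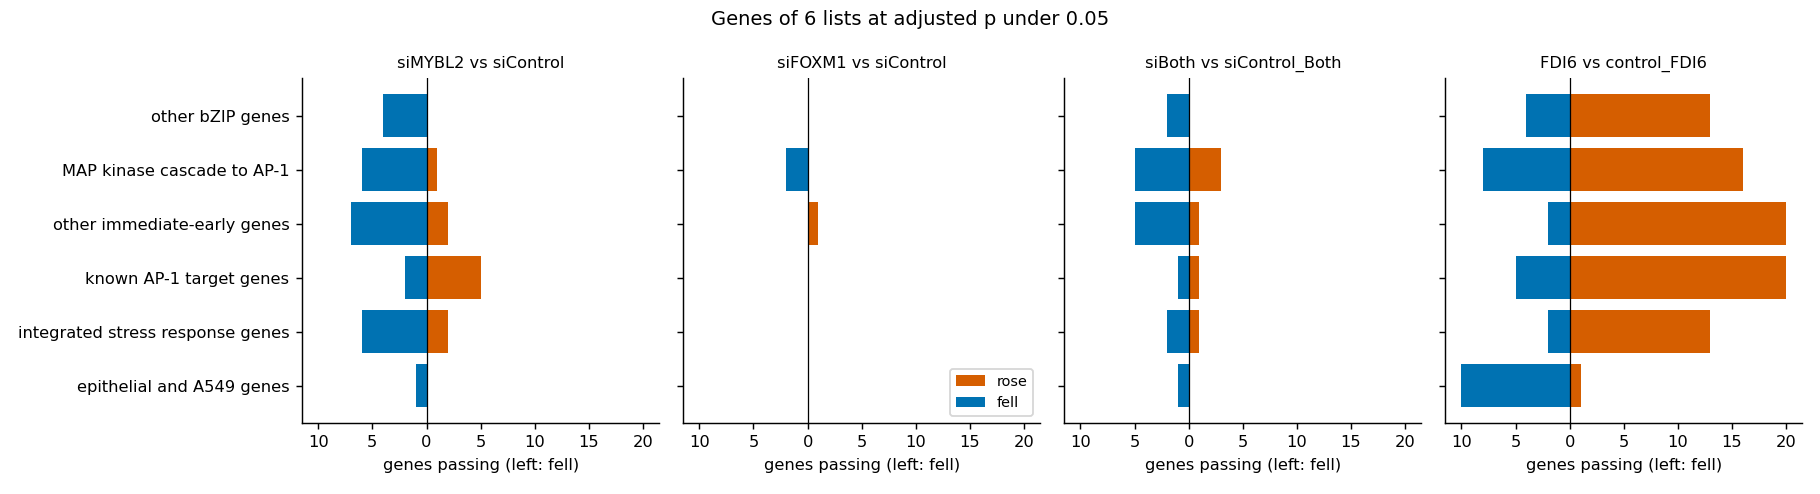
Genes of 6 lists that passed edgeR's test at an adjusted p under 0.05, bars to the right for those that rose and to the left for those that fell, in the 4 treatments. The longest bars are the 20 immediate-early genes and 20 AP-1 target genes that rose with FDI-6, and epithelial and A549 genes mostly fell there.

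Across all 24 libraries the genes most like FOSB in pattern, by Pearson's r of log2(CPM + 0.5), were CXCL8 (0.969), SERPINB8 (0.965) and NFKBIZ (0.963). For ATF3 they were GEM (0.961), CXCL3 (0.959) and CXCL2 (0.959), and for MAFF they were GEM (0.956), CDCP1 (0.953) and ATF3 itself (0.952). For FOS, whose spread between replicates was wide, the values were lower, with AHCYL2 (0.892), ENO2 (0.877) and IFITM2 (0.862). CXCL8, CXCL2 and CXCL3 encode chemokines that attract neutrophils. These r values describe 24 libraries that share 3 experiments and their levels, and are not a test.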

How the data were processed

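RNA was captured by polyA and sequenced as 150 bp read pairs. Per the paper's methods the authors trimmed reads with Trim Galore, used STAR for alignment to hg38 and HTSeq for counting over the genes of GENCODE V29. The deposited values are raw counts of read pairs per gene, not normalized. HTSeq drops ambiguous and multiply aligned pairs, so similar or overlapping genes are counted in part. Versions and the strand setting are not given in the sources used here. The 5 summary lines of each file were left out.

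Levels are CPM, the count over the pairs on genes. Identifiers were matched to GENCODE V44 (58207 found, 514 not), which gave exon lengths and GC content. Counts were fitted with edgeR 4.0.16 in R 4.3.3, on the groups of each comparison, by its quasi-likelihood test, with TMM scaling, its default filter on low counts and no block. The p-values were adjusted over all genes tested (15240 to 17026) after Benjamini and Hochberg. A gene passed at an adjusted p under 0.05. The SE is the log2 fold change over the square root of F. The scripts were tested on simulated data. DESeq2 1.42.0, other scalings and filters, an offset for GC content and length, and leaving out each library were alternatives.

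The study calls its replicates biological. Libraries with the same number deviated together from the means of their groups, with correlations of 0.57 to 0.874 for siMYBL2, 0.537 to 0.905 for siFOXM1, 0.552 to 0.687 for siBoth and 0.522 to 0.863 between the 2 single knockdowns, so numbers pair these libraries. For FDI6 the correlations were -0.286 to 0.159, and the numbers do not pair the libraries. The 10 genes and the gene lists were chosen with earlier results of these data known. Named from the lists are up to 2 genes with the largest rise and 2 with the largest fall per comparison, among those over 1.5-fold whose groups did not overlap. Genes of like pattern are the 3 with the highest r among those with a mean of at least 10 CPM, given for the 4 genes whose group means ranged most.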

Additional observations from a re-analysis of the deposited data

Results flagged for a closer look

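For 5 genes the effect of FDI-6 differed from that of siFOXM1, each effect taken against its own control, in edgeR's quasi-likelihood test of that difference. On the log2 scale it was 3.03 for FOSB, 2.37 for ATF3, 1.74 for JUN, 1.53 for MAFF and -0.61 for JUND. In FDI6 all 3 libraries lay beyond all 3 controls for each of these genes, whereas siFOXM1 and siControl libraries overlapped for all 5. The genes were picked by a test on these same values, so the separation adds no support to it. Groups of 3 also separate by chance more easily than groups of 4, and the share of all genes that separate so is not given here. For JUN the adjusted p by edgeR was 0.0497 without a block and 3.38e-09 with the replicate block. For JUND the difference was lost with the correction for GC content and length. Within the 30 sets of 4 libraries (10 genes in 3 groups) no library met Dixon's criterion for a single outlying value, which chance alone would meet in about 1 set of 20. The low FOSL1 and JUN values of replicate 4 did not meet it either, in any of the 3 groups.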

How the results depend on the processing

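The calls of JUNB and JUND in siMYBL2 and of FOSB, FOSL1, JUN, ATF3 and MAFF with FDI-6 held under every alternative run, and FOS and JUND with FDI-6 had the exceptions given beside them. Depth limits FOSB, with as few as 4 pairs in a control library. The replicate block passed more genes in the paired knockdowns: 7507 genes in siMYBL2 (7652 with the correction for GC content and length added), with 6 of the 10 genes in both, 4187 in siFOXM1 (4425), with 4, 5501 in siBoth (5753), with 4, and 7903 between siMYBL2 and siFOXM1 (8052), with 5. For siBoth against siMYBL2 effects it passed 1200 genes (650 with the correction) and 1 of the 10 in both. For FDI-6 against siFOXM1 effects it passed 6523 (5386, with 8 of the 10), among them FOSL1 (1.88, adjusted p = 1.19e-08) and FOS (1.05, adjusted p = 0.00124) by edgeR. With FDI-6 alone the numbers do not pair the libraries, and the block turned BATF3 to -0.01 and changed no call. The correction without the block passed 18 genes for siBoth against siMYBL2 effects, 1999 for FDI-6 against siFOXM1 effects and 2 of the 10 in siBoth. DESeq2 passed 677 genes and 1 of the 10 in siFOXM1, 2 of the 10 in siBoth, and 138 genes for siBoth against siMYBL2 effects. With all 24 libraries in 1 fit 434 genes passed in siFOXM1 and 3085 in siBoth. In siBoth 0 of the 10 passed with upper-quartile scaling and 3 without a filter. In the main siBoth fit 1 of the 10 passed, where 4.55% of all genes rose and 7.77% fell. The shares of all genes in siBoth with the correction alone, DESeq2, upper-quartile scaling or no filter are not given here, so these small counts are not read further.

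Values near 0 turned in sign. With the correction FOSL1 was at -0.004 in siMYBL2 and -0.06 in siBoth (-0.05 with the block), ATF3 at -0.06 in siBoth (-0.06), FOSL2 at -0.03 in siFOXM1 (-0.02) and -0.04 with FDI-6 (-0.05). Without a filter FOSL2 was at -0.0034 in siFOXM1. Upper-quartile scaling gave MAFF 0.02 in siBoth, and with FDI-6 FOSL2 -0.0021, JUNB -0.03 and BATF3 -0.03.

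Leaving out each library in turn passed 1632 to 3116 genes in siMYBL2, lowest without siMYBL2 replicate 1, 68 to 224 in siFOXM1, lowest without siFOXM1 replicate 1, and 727 to 1657 in siBoth, lowest without siControl_Both replicate 2. It passed 3948 to 6626 with FDI-6, lowest without control_FDI6 replicate 1, 7 to 30 for siBoth against siMYBL2 effects, lowest without siControl replicate 1, and 2365 to 4073 for FDI-6 against siFOXM1 effects, lowest without control_FDI6 replicate 1. Of the 10 genes 0 to 1 passed in siBoth. In siMYBL2 the log2 fold change was -0.31 to 0.41 for FOSL1, -0.57 to 0.01 for JUN and -0.55 to 0.21 for ATF3. In siFOXM1 it was -0.11 to 0.14 for FOSL2, -0.0075 to 0.05 for JUND, -0.54 to 0.31 for FOS, -0.46 to 0.23 for FOSB, -0.52 to 0.27 for FOSL1, -0.44 to 0.14 for JUN and -0.14 to 0.02 for BATF3. In siBoth it was -0.0076 to 0.64 for FOSB, -0.13 to 0.1 for ATF3, -0.26 to 0.09 for JUN, -0.21 to 0.13 for MAFF, -1.02 to 0.61 for FOS and -0.07 to 0.32 for FOSL1. With FDI-6 it was -0.02 to 0.14 for FOSL2, -0.1 to 0.12 for JUNB and -0.2 to 0.21 for BATF3. The cause of these shifts was not tested.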
